A study of Mus musculus with 48 samples.

Results

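The small proline-rich (Sprr) genes described here are Sprr1a, Sprr1b, Sprr2d, Sprr2e, Sprr2f, Sprr3 and Sprr4. These 7 genes were taken by name from 22180 gene symbols on the array, and each was read from the brightest of its probe sets that carry 1 gene symbol. Each of the 7 had exactly 1 such probe set. A gene was tested where its signal lay above the median of the array in at least 3 arrays, which 15242 genes and all 7 Sprr genes did. Sprr1a, Sprr1b and Sprr3 were above that median in all 48 arrays, Sprr2d in 47, Sprr2e in 46, Sprr2f in 38 and Sprr4 in 31. All 7 lie on mouse chromosome 3, in the epidermal differentiation complex.

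Sprr proteins are short, rich in proline, glutamine and cysteine, and are made late in the life of a stratified squamous epithelial cell. Transglutaminases crosslink them to involucrin, loricrin and each other to build the cornified envelope, the tough layer beneath the membrane of the outermost cells. In the oesophagus and forestomach of the mouse they belong to the suprabasal layers, and several of them are known to be induced by inflammation, wounding and other epithelial stress.

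The study asked how diet, interleukin-8 (IL-8), FXR (a receptor for bile acids) and the Notch pathway bear on progression in a mouse model of Barrett oesophagus that carries an interleukin-1 beta transgene, labelled pL2. Gene expression was measured on Affymetrix arrays in 48 samples of tissue from the squamocolumnar junction and cardia, 3 arrays in each of 16 groups. The values are log2 signals. The labels did not say which arrays, if any, came from the same mouse or litter, so p-values measure the spread between these samples, which may in part be technical.

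Of the groups, 12 carried pL2: a pL2_IL8 line at 12 and at 9 months of age; pL2 combined with Lgr5 or Dclk and with Notch2IC_LacZ, floxed Notch2 or floxed Notch1, 6 groups given tamoxifen at 3 to 6 months and taken at 9 to 13 months; pL2_FXR; and pL2 alone in the MRI facility on chow, in the Freising facility on high fat diet (HFD) and in Freising on chow. The other 4 were the FXR line without pL2, and wild-type (WT) mice in MRI on chow, in Freising on HFD and in Freising on chow. Outside the Notch lines and the younger IL-8 group all mice were 12 months old. All groups except the Freising ones were kept in MRI on chow. The labels named neither the promoter of the transgene nor whether the FXR line lacks or overexpresses the receptor. In the published L2-IL1B mouse line an Epstein-Barr virus promoter drives the human cytokine in the squamous epithelium of oesophagus and forestomach. The label Dclk or Lgr5 names the gene whose cells are addressed after tamoxifen, and the labels did not state in what share of cells recombination took place. The pL2 mice in MRI and the IL-8 and Notch lines set against them differ in the series marked in their sample titles, so line and title series cannot be told apart in those comparisons. Some sample titles also end in an extra number, the title suffix. In Freising on chow 3 of 3 pL2 and 0 of 3 WT arrays had it, and on HFD 2 of 3 and 0 of 3. Suffix and pL2 thus cannot be told apart in Freising on chow, while all pL2 and WT arrays of MRI had it.

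The samples held both epithelia. The mean log2 signal of 13 gastric columnar markers lay between 11.6 and 12.3 across group means, and that of 10 markers of the squamous basal layer between 6.92 and 8.8 across arrays. Hepatocyte or intestinal markers averaged above 8 on the log2 scale in 9 arrays. Xist was above 8 in 1 of 3 pL2 arrays against 3 of 3 WT arrays of MRI, and in 0 arrays of Freising, and the labels gave no sex. The probe set of mouse Il1b averaged 7.77 in pL2 mice of MRI against 4.97 in WT mice there, and 5.65 in pL2 mice of Freising against 4.23 in WT mice there, on chow. The array correlation within groups ranged from 0.918 to 0.989. Probe sets of close relatives can pick up each other's RNA, so the signals assigned to Sprr2d, Sprr2e and Sprr2f are uncertain as to which of the near-identical Sprr2 genes they come from. In whole tissue, fewer squamous cells and less Sprr RNA per squamous cell cannot be told apart.

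The promoters are shown because the Sprr genes that moved together and those that did not could be set side by side in sequence. For 5 of the 7 genes the 250 bases before the RefSeq start on GRCm38.p6 are given, 5′ to 3′, with the letters of an AP-1 site in capitals. Sprr1a, with 2 AP-1 matches and a smaller pL2 difference (1.33-fold), and Sprr4 are not printed, so the printed set is not the whole contrast. AP-1, the Fos and Jun dimer, is a known regulator of Sprr genes.
Sprr2d, chr3:92338890-92339139, plus strand: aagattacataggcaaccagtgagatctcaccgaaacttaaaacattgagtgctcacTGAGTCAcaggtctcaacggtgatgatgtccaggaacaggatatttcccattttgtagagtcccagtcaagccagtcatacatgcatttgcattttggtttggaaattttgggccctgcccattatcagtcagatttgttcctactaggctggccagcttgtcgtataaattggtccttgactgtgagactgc
Sprr2e, chr3:92351893-92352142, plus strand: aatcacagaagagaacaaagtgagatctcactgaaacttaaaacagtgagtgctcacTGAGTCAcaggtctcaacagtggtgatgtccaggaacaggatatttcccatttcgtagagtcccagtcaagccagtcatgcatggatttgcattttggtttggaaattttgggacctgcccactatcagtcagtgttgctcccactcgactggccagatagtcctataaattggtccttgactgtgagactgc
Sprr2f, chr3:92364937-92365186, plus strand: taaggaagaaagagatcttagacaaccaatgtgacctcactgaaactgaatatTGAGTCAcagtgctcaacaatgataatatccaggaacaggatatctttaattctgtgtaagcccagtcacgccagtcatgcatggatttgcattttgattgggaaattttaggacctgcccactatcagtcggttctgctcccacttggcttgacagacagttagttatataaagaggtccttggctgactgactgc
Sprr1b, chr3:92438780-92439029, minus strand: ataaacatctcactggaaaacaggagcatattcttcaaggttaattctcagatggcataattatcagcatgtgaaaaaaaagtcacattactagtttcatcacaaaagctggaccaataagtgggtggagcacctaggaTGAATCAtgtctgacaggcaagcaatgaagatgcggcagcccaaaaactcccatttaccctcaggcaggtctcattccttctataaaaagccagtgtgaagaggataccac
Sprr3, chr3:92458721-92458970, minus strand: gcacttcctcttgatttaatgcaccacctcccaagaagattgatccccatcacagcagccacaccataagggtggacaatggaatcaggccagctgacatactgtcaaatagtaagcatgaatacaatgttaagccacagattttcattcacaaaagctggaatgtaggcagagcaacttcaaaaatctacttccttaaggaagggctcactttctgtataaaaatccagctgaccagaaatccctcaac

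The motif searched was TGANTCA, which reads the same on both strands. It was found 2 times in Sprr1a (116 and 146 bases before the start) and 1 time each in Sprr1b (111 bases), Sprr2d (193), Sprr2e (193) and Sprr2f (197). Sprr3 and Sprr4 had no match in the window, which ran to 50 bases after the start. Among 32851 RefSeq promoters of the same 300 bases, 7.81% held at least 1 match. The octamer ATTTGCAT, searched on both strands, was present in Sprr2d (108 bases), Sprr2e (108) and Sprr2f (112) and in none of the other 4, against 1.74% of all promoters. TATAAA, the core of a TATA box, was found in all but Sprr4, against 13.6% of all promoters. A motif of the transcription factor NF-kB was searched as well. It had no match in any of these Sprr promoters, against 4.79% of all promoters. No match to one motif overlapped a match to another. The Sprr2d and Sprr2e promoters were 88.7% identical, Sprr2d and Sprr2f 72.2%, and Sprr2e and Sprr2f 74.8%, whereas every other pair of the 7 lay between 45.3% and 52.6%. A match is a stretch of letters, not a measured binding site.

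With the pL2 transgene, 5 of the 7 Sprr genes were higher on chow: Sprr1a by 1.33-fold, Sprr1b by 8.18-fold, Sprr2d by 4.54-fold, Sprr2e by 10.2-fold and Sprr2f by 13.4-fold, as the mean of the pL2 minus WT differences in MRI and in Freising. The WT signals of Sprr2f lay mostly below the array medians, so its fold is a ratio of fitted signals and not an exact one. The other two, Sprr3 and Sprr4, did not pass the test. Of all 15242 genes tested, 9.05% were called higher in this comparison. The median of the 7 log2 differences was 2.18, against -0.01 over all genes tested. A gene was called where the limma fit to all 48 arrays gave a Benjamini-Hochberg adjusted p below 0.05 over the genes tested.

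**Figure D1:**
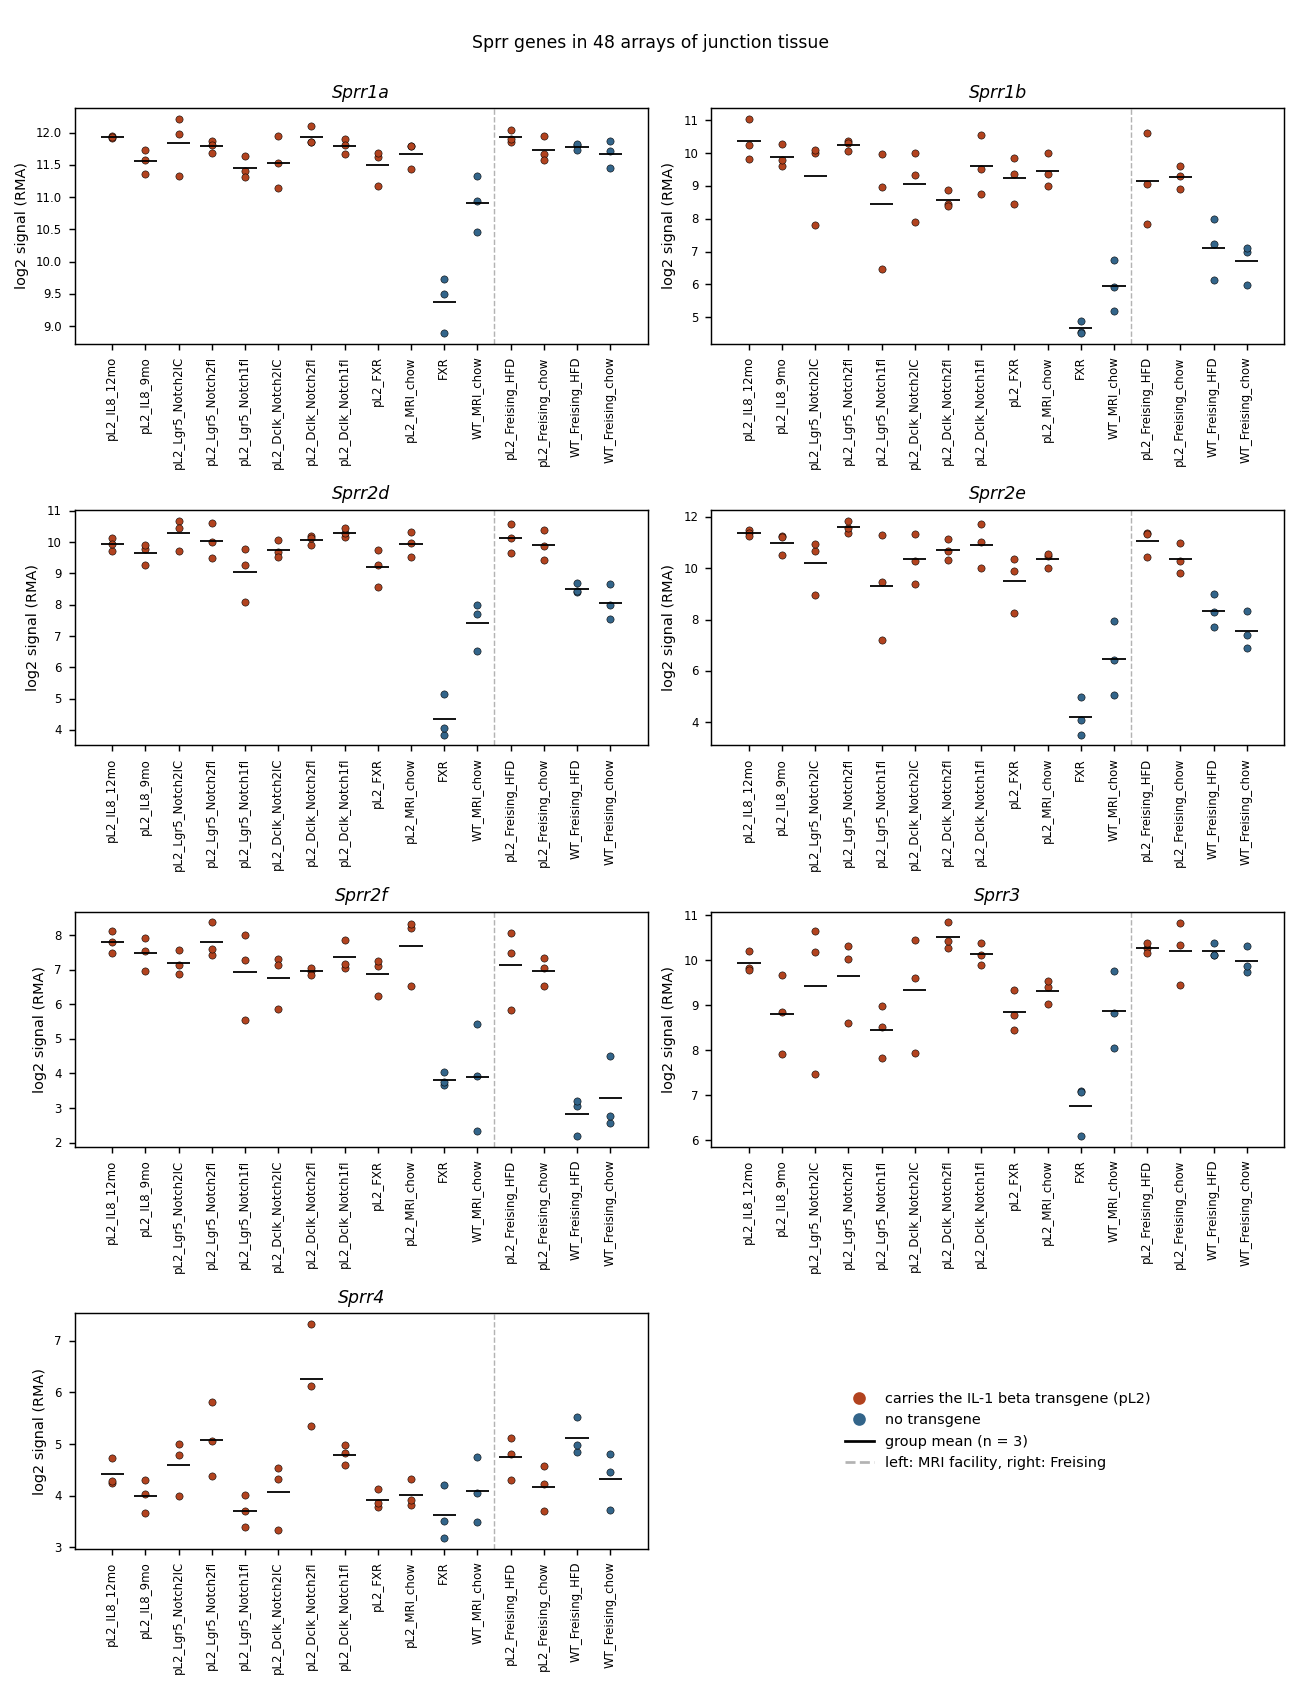
Log2 signal of each Sprr gene in every array, 1 panel per gene, with groups along the horizontal axis, points for arrays (red with pL2, blue without) and black lines for the means of 3 arrays. The dashed line parts MRI groups on the left from Freising groups on the right. The Sprr2f points with pL2 start at 5.54 and all lie above those without it, which end at 5.45, while the Sprr3 points of the same groups overlap.

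Sprr2f, one of the Sprr2 cornified envelope precursors, measured 6.53, 8.23 and 8.33 in pL2 mice of MRI against 3.94, 5.45 and 2.32 in WT mice of MRI. In Freising on chow its signals were 6.53, 7.05 and 7.34 in pL2 mice against 2.56, 2.78 and 4.49 in WT mice. The groups did not overlap at either site. The mean log2 difference was 3.74 ± 0.44 (SE, limma adjusted p = 8.84e-07). Across the whole series Sprr2f was at 5.54 or above in the 36 arrays with pL2 and at 5.45 or below in the 12 without. A complete separation of this kind was seen in 44 of the genes tested (0.289%). Sprr2f lay below the array median in 10 of the 12 arrays without pL2, where signals near the background of an array compress differences. It therefore passed the filter of at least 3 arrays only because of pL2 arrays. Its call and its separation are thus not support apart from that filter.

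Sprr2e, a close relative of Sprr2d, had signals of 10.03, 10.48 and 10.56 in pL2 mice of MRI against 5.08, 7.93 and 6.42 in WT mice there. In Freising on chow they were 10.29, 9.81 and 10.99 in pL2 mice against 6.88, 7.42 and 8.34 in WT mice. All 6 pL2 arrays were above the WT arrays of their facility, and the 3 WT arrays of MRI were far apart from each other. The mean difference was 3.35 ± 0.50 (SE, limma adjusted p = 2.68e-05).

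Sprr2d had signals of 9.53, 9.98 and 10.33 in pL2 mice of MRI against 6.53, 7.98 and 7.70 in WT mice there. In Freising on chow they were 9.87, 9.42 and 10.38 in pL2 mice against 7.56, 8.0 and 8.65 in WT mice. Again no pL2 array reached down to a WT array. The mean difference was 2.18 ± 0.28 (SE, limma adjusted p = 3.48e-06).

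Sprr1b, a precursor that is known to mark squamous metaplasia in several epithelia, measured 8.99, 9.36 and 10.01 in pL2 mice of MRI against 5.20, 6.75 and 5.93 in WT mice there. Its Freising chow values were 8.90, 9.61 and 9.29 in pL2 mice against 5.99, 6.99 and 7.12 in WT mice. Both facilities showed a gap between the genotypes, and the mean difference was 3.03 ± 0.48 (SE, limma adjusted p = 5.59e-05).

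Sprr1a, the paralog of Sprr1b and also known as a gene of axon regeneration and tissue stress, had a smaller fitted difference. Its signals were 11.44, 11.79 and 11.79 in pL2 mice of MRI against 10.46, 10.94 and 11.33 in WT mice there. In Freising on chow they were 11.67, 11.57 and 11.94 in pL2 mice against 11.45, 11.71 and 11.86 in WT mice, and there the genotypes overlapped. The mean difference was 0.41 ± 0.15 (SE, limma adjusted p = 0.0442). That call did not hold when any 1 of 8 of the 12 arrays was left out: WT replicate 1 or 2 or pL2 replicate 2 or 3 of MRI, or WT replicate 1 or 2 or pL2 replicate 1 or 3 of Freising chow, with differences of 0.30 to 0.42 and adjusted p of 0.0527 to 0.172.

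Sprr3, the family member known as esophagin for its abundance in oesophageal epithelium, measured 9.40, 9.55 and 9.03 in pL2 mice of MRI against 8.04, 8.82 and 9.75 in WT mice there. In Freising on chow its signals were 10.33, 9.45 and 10.83 in pL2 mice against 9.74, 9.88 and 10.31 in WT mice. The genotypes overlapped at both sites, and the mean difference was 0.34 ± 0.41 (SE, limma adjusted p = 0.599). Sprr4, known mainly from skin exposed to ultraviolet light, ranged from 3.70 to 4.57 in the 6 pL2 arrays and from 3.48 to 4.8 in the 6 WT arrays. Its signal stayed near the array median, and its mean difference was -0.11 ± 0.28 (SE, limma adjusted p = 0.820).

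Sprr1b, Sprr2d, Sprr2e and Sprr2f were called at both sites. In MRI 5 of the 7 were called higher (10.3% of genes tested were), with a member median of 2.54 against 0.01 over all genes. In Freising on chow 4 of the 7 were called higher (0.728% of genes tested), with a member median of 1.82 against -0.03 over all genes, and Sprr1a was not among them (0.05 ± 0.21, SE, limma adjusted p = 0.937). In MRI the Sprr1a difference was 0.77 ± 0.21 (SE, limma adjusted p = 0.00764), and without WT replicate 1 it was 0.54 (adjusted p = 0.0962). The difference between the sites was not called for any of the 7, with a smallest adjusted p of 0.181, for Sprr1a, while 1.76% of genes tested were called. At an unadjusted p below 0.05, 1 of the 7 passed that comparison. Calls in Freising rested on few arrays: without WT replicate 1, WT replicate 2 or pL2 replicate 3 only Sprr2f was called, and its adjusted p was at most 0.0108 with any 1 array left out. Sprr1b alone also lost its call there without WT replicate 3 or pL2 replicate 2 (adjusted p of 0.0723 and 0.135).

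On HFD in Freising, Sprr2f measured 5.84, 8.06 and 7.50 in pL2 mice against 3.07, 2.18 and 3.19 in WT mice, with a difference of 4.32 ± 0.62 (SE, limma adjusted p = 9.37e-05). Sprr2e measured 10.45, 11.38 and 11.35 in pL2 mice against 8.31, 7.71 and 9.01 in WT mice, a difference of 2.72 ± 0.70 (SE, limma adjusted p = 0.0442). These Sprr2 genes kept a gap between the genotypes on HFD as well. With Sprr2d (1.60 ± 0.39, SE, limma adjusted p = 0.0307) they made 3 of the 7 called higher, against 0.919% of genes tested, and the member median was 1.60 against -0.01 over all genes. Sprr1b, at 7.83, 10.61 and 9.06 in pL2 mice against 7.23, 6.15 and 7.99 in WT mice, overlapped and was not called (2.04 ± 0.69, SE, limma adjusted p = 0.130). Without pL2 replicate 1, the lowest of the 3, it was called at 2.71 (adjusted p = 0.0253). Sprr2d and Sprr2e were not called when any 1 of WT replicates 1, 2 and 3 or pL2 replicates 2 and 3 was left out, which left Sprr2f alone.

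Diet itself gave no call among the 7. HFD minus chow within pL2 mice gave a member median of 0.20 (0.02 over all genes) and no call (0% of genes tested, of which 872 had an unadjusted p below 0.05). Within WT mice the median was 0.42 (0.01 over all genes), again with no Sprr gene called and 0.164% of genes tested called. In WT mice Sprr4 was at 4.85, 5.52 and 4.99 on HFD against 3.72, 4.45 and 4.8 on chow. All 3 HFD arrays of Sprr4 were above the chow arrays, but the difference of 0.80 ± 0.40 had a limma adjusted p of 0.9996. Whether the effect of pL2 differs between diets was tested as well, and no member was called (0.0197% of genes tested).

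**Figure D2:**
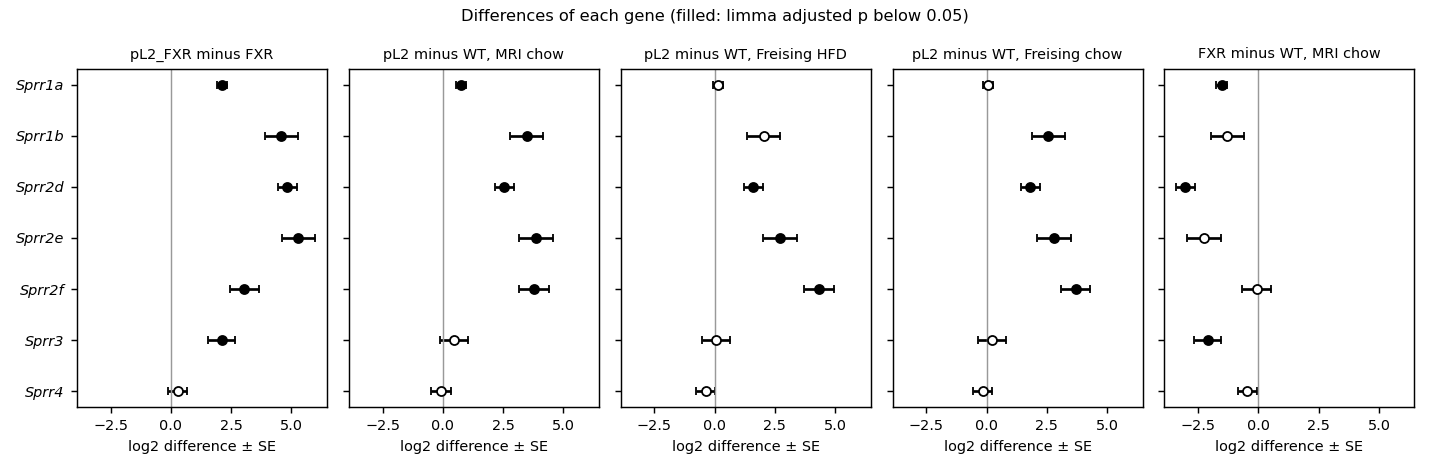
Log2 difference of each Sprr gene with its standard error (horizontal axis) in 5 comparisons, 1 panel each, with genes down the page. Filled points passed a limma adjusted p of 0.05. With pL2 the Sprr2 genes and Sprr1b lie to the right of 0 in all 4 pL2 comparisons, from 1.60 to 5.30, while in the FXR line against WT Sprr2f stays at -0.08.

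In the FXR line without pL2 against WT mice of MRI, 3 of the 7 genes were lower and none higher: Sprr1a by 2.90-fold, Sprr2d by 8.23-fold and Sprr3 by 4.34-fold. The Sprr2d signals of the FXR line lay around the array medians, so its fold is a ratio of fitted signals and not an exact one. Of the genes tested, 1.37% were called lower. The member median was -1.53, against 0.02 over all genes. Sprr2d measured 3.85, 5.16 and 4.08 in the FXR line against 6.53, 7.98 and 7.70 in WT mice, a difference of -3.04 ± 0.39 (SE, limma adjusted p = 3.33e-05). Sprr1a measured 8.90, 9.73 and 9.50 in the FXR line against 10.46, 10.94 and 11.33 in WT mice, a difference of -1.53 ± 0.21 (SE, limma adjusted p = 4.75e-05). The FXR arrays of both genes were the lowest of all 48, as were those of Sprr1b, Sprr2e and Sprr3. The share of all genes tested with such a gap was not counted.

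Sprr3 measured 6.09, 7.10 and 7.08 in the FXR line against 8.04, 8.82 and 9.75 in WT mice, also without overlap. Its difference was -2.12 ± 0.58 (SE, limma adjusted p = 0.0444), and it lost its call without any 1 of FXR replicates 1, 2 and 3 or WT replicates 2 and 3, with differences of -2.29 to -1.67 and adjusted p of 0.0614 to 0.237. Sprr2e measured 4.11, 4.98 and 3.52 in the FXR line against 5.08, 7.93 and 6.42 in WT mice, with a difference of -2.27 ± 0.70 that did not pass (SE, limma adjusted p = 0.0811). Without WT replicate 1, whose liver or intestinal markers were high, it was called at -2.97 (adjusted p = 0.0413). Sprr1b measured 4.56, 4.88 and 4.52 in the FXR line against 5.20, 6.75 and 5.93 in WT mice, a difference of -1.31 ± 0.69 (SE, limma adjusted p = 0.354). For both genes the FXR arrays lay below the WT arrays, and the test across all genes did not call them.

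Sprr2f stood apart. Its signals were 3.66, 4.05 and 3.76 in the FXR line against 3.94, 5.45 and 2.32 in WT mice, with a difference of -0.08 ± 0.62 (SE, limma adjusted p = 0.970). These signals overlapped and lay close to the array medians, or below them. Sprr4 was 3.18, 4.20 and 3.51 in the FXR line against 4.05, 3.48 and 4.75 in WT mice, which overlap.

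Markers of squamous tissue in general moved with these genes. The mean of the 10 squamous basal markers was 6.92, 7.05 and 7.55 in the FXR line against 8.39, 7.75 and 8.60 in WT mice, with 5 of the 10 called lower, among them Krt14 (-2.0 ± 0.33, SE, limma adjusted p = 0.000594) and Trp63 (-1.97 ± 0.37, SE, limma adjusted p = 0.00287). Of 18 suprabasal keratin and desmosome genes 8 were lower, and the mean of the list was 7.60, 8.55 and 8.70 in the FXR line against 9.57, 9.86 and 10.25 in WT mice. None of 13 gastric columnar markers was called, and 2 of 11 neutrophil markers were lower. Skeletal muscle markers, which come with the wall of the oesophagus, averaged 4.71, 4.13 and 4.64 in the FXR line against 6.28, 5.91 and 6.42 in WT mice, with 6 of 12 called lower. With the squamous basal mean as a covariate 1 of the 7 Sprr genes was called, Sprr2d at -2.78 (adjusted p = 0.0449), and the differences of Sprr1a and Sprr3 were -1.23 (adjusted p = 0.156) and -0.81 (adjusted p = 0.912). With the skeletal muscle mean as a covariate Sprr1a and Sprr2d were called and Sprr3 was not (-1.37, adjusted p = 0.580). How much of each Sprr difference follows the share of squamous tissue was not tested.

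**Figure D3:**
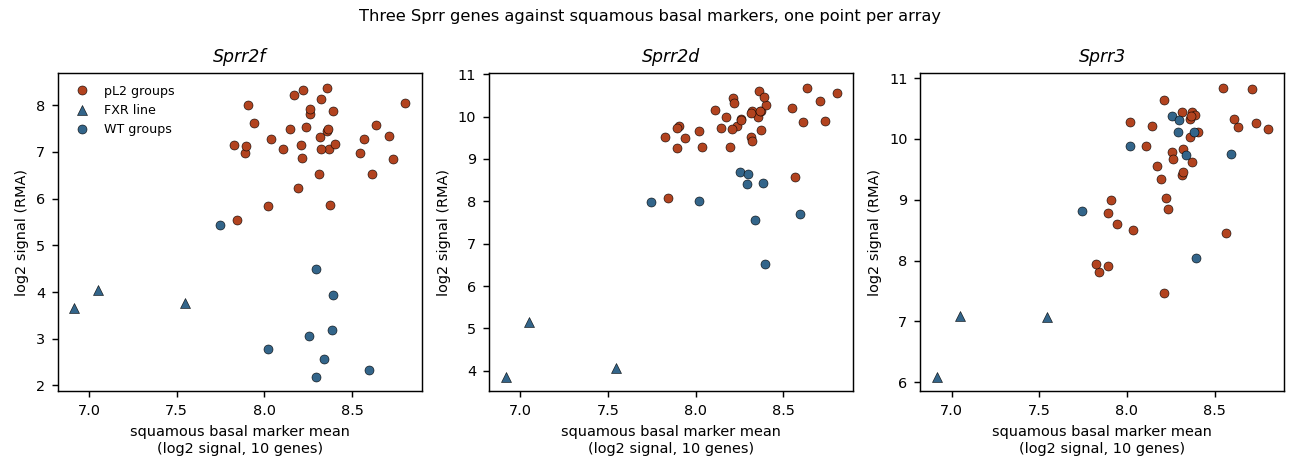
Log2 signal of Sprr2f, Sprr2d and Sprr3 (vertical axes) against the mean log2 signal of 10 squamous basal markers (horizontal axis), 1 point per array, red with pL2, blue without, triangles for the FXR line. The 3 FXR arrays, at 6.92, 7.05 and 7.55, lie left of all others, and at the same marker mean the Sprr2f points without pL2 lie below those with it.

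On the FXR background, 6 of the 7 genes were higher with pL2. In pL2_FXR against FXR mice the calls were Sprr1a (4.34-fold), Sprr1b (23.9-fold), Sprr2d (28.5-fold), Sprr2e (39.3-fold), Sprr2f (8.31-fold) and Sprr3 (4.29-fold), and 5.15% of genes tested were called higher. In the FXR line Sprr1b, Sprr2d, Sprr2e and Sprr2f had signals around or little above the array medians of 4.03 to 4.27, so their folds are ratios of fitted signals that depend on the background of the array and give no order among these genes. The member median was 3.05, against -0.03 over all genes. Sprr2e measured 10.36, 9.89 and 8.25 in pL2_FXR mice against 4.11, 4.98 and 3.52 in FXR mice, a difference of 5.30 ± 0.70 (SE, limma adjusted p = 2.82e-06). Sprr2d measured 9.73, 9.28 and 8.58 in pL2_FXR mice against 3.85, 5.16 and 4.08 in FXR mice, a difference of 4.83 ± 0.39 (SE, limma adjusted p = 4.49e-10). Every pL2_FXR array was above every FXR array for all 6 called genes, and the share of all genes tested with such a gap was not counted.

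Sprr1b was 9.37, 9.87 and 8.45 in pL2_FXR mice against 4.56, 4.88 and 4.52 in FXR mice. Sprr1a was 11.62, 11.69 and 11.17 in pL2_FXR mice against 8.90, 9.73 and 9.50 in FXR mice. Sprr3 was 8.78, 9.34 and 8.45 in pL2_FXR mice against 6.09, 7.10 and 7.08 in FXR mice, a difference of 2.10 ± 0.58 (SE, limma adjusted p = 0.0170). Sprr3 was not called without FXR replicate 1 (1.77, adjusted p = 0.103) or without pL2_FXR replicate 2 (1.86, adjusted p = 0.0988), nor with the squamous basal mean as a covariate (0.83, adjusted p = 0.658). With that covariate Sprr2f was not called either (3.03, adjusted p = 0.0773), and the other 4 genes were. The squamous basal mean was 7.89, 8.19 and 8.57 in pL2_FXR mice against 6.92, 7.05 and 7.55 in FXR mice, and 5 of its 10 genes were called higher and 1 lower. Of 18 suprabasal keratin and desmosome genes 10 were higher and none lower. Among the 11 neutrophil markers 7 passed as higher and 0 as lower, with a list median of 2.60, and their mean was 7.32 to 7.86 in pL2_FXR mice against 4.15 to 4.91 in FXR mice. The part of the squamous share beyond that covariate, and of neutrophil content, was not tested.

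Between pL2_FXR and pL2 mice none of the 7 was called (0.0853% of genes tested), with a member median of -0.47 against -0.01 over all genes and differences of -0.86 to -0.10. The test of whether pL2 acts differently with the FXR change called 1 of the 7, Sprr1a, with a difference of effects of 1.35 ± 0.30 (SE, limma adjusted p = 0.0478), against 0.0919% of genes tested called higher. Sprr2d had a difference of 2.29 ± 0.56 (SE, limma adjusted p = 0.0763), and Sprr2f one of -0.74 ± 0.87 (SE, limma adjusted p = 0.741). This test uses the same WT and FXR arrays as the comparisons above. The Sprr1a call was lost without any 1 of 10 of the 12 arrays, that is all but WT replicate 1 and pL2 replicate 1 of MRI, with adjusted p of 0.0519 to 0.144, and without WT replicate 1 Sprr2d was called too (2.73, adjusted p = 0.0330).

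No Sprr gene was called between pL2_IL8 and pL2 mice. In pL2_IL8 mice of 12 months against pL2 mice of MRI the differences ran from -0.01 (Sprr2d) to 1.02 (Sprr2e), with a smallest adjusted p of 0.478, a member median of 0.40 against 0.05 over all genes, and 1.82% of genes tested called. Sprr2e was 11.49, 11.39 and 11.26 in pL2_IL8 mice of 12 months against 10.03, 10.48 and 10.56 in pL2 mice. The arrays, 3 a side, did not overlap for Sprr2e, Sprr1a and Sprr3, and these differences did not pass. The share of all genes tested with such a gap was not counted. Between 12 and 9 months within the IL-8 line the member median was 0.38 against -0.01 over all genes, and no gene was called (0% of genes tested, of which 1184 had an unadjusted p below 0.05). Sprr3 was 9.84, 10.21 and 9.79 at 12 months against 8.85, 9.68 and 7.91 at 9 months, a difference of 1.14 ± 0.58 (SE, limma adjusted p = 0.669).

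In the Notch lines the 1 Sprr gene called was Sprr4, and in 1 of the 6 lines. Against pL2 mice of MRI, no member was called in the other 5 lines. With Lgr5 and Notch2IC_LacZ the member median was 0.10 against -0.02 over all genes (0.138% of genes tested called). With Lgr5 and floxed Notch2 it was 0.33 against -0.01 (0.0525%), and with Lgr5 and floxed Notch1 it was -0.89 against -0.08 (0.144%). With Dclk and Notch2IC_LacZ it was -0.14 against 0.01 (0.0197%), and with Dclk and floxed Notch1 it was 0.36 against -0.0041 (0%, with 1589 genes at an unadjusted p below 0.05). The mice with Lgr5 and floxed Notch1 were spread widely. Their Sprr2e signals were 9.48, 11.29 and 7.22, against 10.03, 10.48 and 10.56 in pL2 mice, and their Sprr1b signals were 8.96, 9.96 and 6.46, against 8.99, 9.36 and 10.01 in pL2 mice. Among them, replicates 2 and 3 were among the 9 arrays with high hepatocyte or intestinal markers. All 18 Notch line arrays of Sprr2f, from 5.54 to 8.38, were above the WT and FXR arrays.

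Sprr4 measured 7.32, 5.35 and 6.12 with Dclk and floxed Notch2, against 3.81, 4.33 and 3.92 in pL2 mice of MRI. The 3 arrays of the Dclk line were spread over a wide range, and all lay above the pL2 arrays. The difference was 2.25 ± 0.40 (4.74-fold, SE, limma adjusted p = 0.00556), with 0.171% of genes tested called higher, a member median of 0.26 and 0.01 over all genes. The array at 7.32, replicate 1, had an intestinal marker mean of 8.68, and without it the difference was 1.72 (adjusted p = 0.0946). Against the same Dclk line, Sprr4 measured 4.53, 4.32 and 3.34 with Notch2IC_LacZ, a difference from floxed Notch2 of -2.20 ± 0.40 (SE, limma adjusted p = 0.0150), where 0.0197% of genes tested were called lower. That call was lost without Notch2IC_LacZ replicate 2 or 3 or without floxed Notch2 replicate 1 or 3, with differences of -2.33 to -1.67 and adjusted p of 0.0684 to 0.517. With Lgr5, floxed Notch2 gave Sprr4 signals of 5.81, 4.39 and 5.06, again above the 3 pL2 arrays, but the difference of 1.07 ± 0.40 was not called (SE, limma adjusted p = 0.412). Between Notch2IC_LacZ and floxed Notch2 with Lgr5 no member was called (0.0722% of genes tested).

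Among the other squamous gene lists, only that of the cornified envelope held calls with Dclk and floxed Notch2. Of 24 other cornified envelope genes 2 were called higher and none lower, where 0.171% of genes tested were called higher. The 2 were Lce1m, a late cornified envelope gene (2.49 ± 0.51, SE, limma adjusted p = 0.0188), and Flg2, a filaggrin relative (1.57 ± 0.36, SE, limma adjusted p = 0.0435). The list median was 1.27, against 0.01 over all genes. None of 18 suprabasal keratin and desmosome genes, 10 squamous basal genes and 4 transglutaminases was called, with list medians of 0.17, 0.02 and -0.02. Near Sprr4 on the chromosome, Lce6a was higher (2.25 ± 0.51, SE, limma adjusted p = 0.0398). Ivl, which lies between them, was not called (0.30 ± 0.59, SE, limma adjusted p = 0.878). Sprr4 and Notch2 both lie on chromosome 3, as does Dclk1. Of the 39 genes called in this comparison 11 were on chromosome 3 (28.2%), against 5.09% of the tested genes with a known place. Between Notch2IC_LacZ and floxed Notch2 with Dclk, 4 of the 5 called genes were on it. The Lgr5 lines showed a like share, though Lgr5 lies on chromosome 10. With Lgr5 and floxed Notch2 against pL2, 3 of the 7 called genes with a known place were on chromosome 3 (42.9%). Between Notch2IC_LacZ and floxed Notch2 with Lgr5, 4 of 10 were (40%). The part of this linkage in the differences of Sprr4, Lce1m, Flg2 and Lce6a was not tested.

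Each gene's order of groups differed in shape. By group mean, Sprr2f ran from 2.81 in WT mice on HFD to 7.81 with Lgr5 and floxed Notch2, and the 4 groups without pL2 filled the lowest places. The 1 step between neighbours in that order larger than the pooled SD of 0.786 was that between WT mice of MRI (3.90) and Dclk with Notch2IC_LacZ (6.78). Sprr2e ran from 4.20 in the FXR line to 11.6 with Lgr5 and floxed Notch2, with the 4 groups without pL2 again lowest. Sprr1b ran from 4.65 in the FXR line to 10.4 in pL2_IL8 mice of 12 months, and Sprr2d from 4.36 in the FXR line to 10.3 with Dclk and floxed Notch1. In Sprr1b, Sprr2d and Sprr2e the step from the highest group without pL2, WT mice on HFD, to the lowest with it exceeded the pooled SD of the gene (0.875, 0.498 and 0.899), as did the step above the FXR line. Among the 12 groups with pL2 no step in these genes did. Sprr1a ran from 9.37 in the FXR line to 11.9 with Dclk and floxed Notch2, and its steps above the FXR line and above WT mice of MRI were larger than its pooled SD of 0.258. Sprr3 ran from 6.76 in the FXR line to 10.5 with Dclk and floxed Notch2. Apart from the FXR line its order mixed groups with and without pL2, and only the step above the FXR line was larger than its pooled SD of 0.738. Sprr4 ran from 3.63 in the FXR line to 6.26 with Dclk and floxed Notch2, and its 1 step larger than the pooled SD of 0.503 was the one below that highest group.

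Across the 48 arrays Sprr1b, Sprr2d, Sprr2e and Sprr2f moved together, with Pearson r of 0.733 to 0.947 over their 6 pairs. Taken as deviations from group means, r was 0.550 to 0.839, so arrays of 1 group that were high in one of these genes tended to be high in the others. Sprr3 went with Sprr1a (r = 0.842 over arrays, 0.809 within groups) more than with Sprr2f (r = 0.190). Sprr4 and Sprr2f had r = 0.0596. These values are descriptions without a test, since arrays share groups and relatives may share probes.

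**Figure D4:**
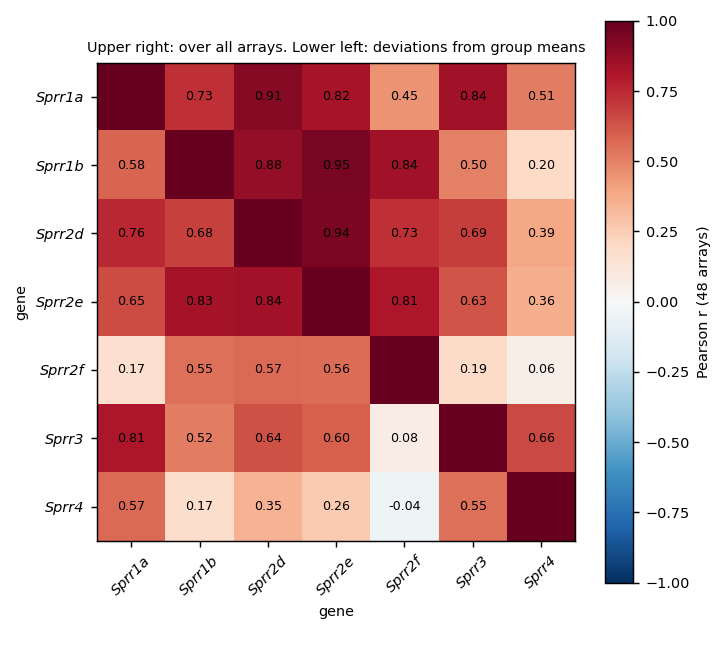
Pearson r between the signals of each pair of Sprr genes over 48 arrays, with genes on both axes. The upper right holds r over all arrays and the lower left r of the deviations from group means. Sprr1b, Sprr2d, Sprr2e and Sprr2f form a block of 0.733 to 0.947 above the diagonal, and Sprr2f with Sprr4 is lowest at 0.0596.

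Set against the squamous basal mean, r over arrays was 0.757 for Sprr3, 0.750 for Sprr1a, 0.672 for Sprr2d, 0.520 for Sprr2e, 0.472 for Sprr1b, 0.459 for Sprr4 and 0.263 for Sprr2f. Within groups Sprr3 had the highest value (0.409) and Sprr2f had 0.01. The search for tested genes with a like pattern over the 48 arrays left out the Sprr genes described at the start. Most like Sprr3 were Bpifc (r = 0.961), Abca12 (0.958), a lipid transporter of the cornified layer, and Pnpla1 (0.955). Most like Sprr1a were Gjb2 (0.955), a gap junction gene, Cnfn (0.948) and Mall (0.946). Most like Sprr2d were Il1rn (0.949), the interleukin-1 receptor antagonist, Gjb2 (0.948) and Tgm1 (0.947). In that search Sprr2e was nearest to Il1rn (0.925), Klk14 (0.905) and Sh3kbp1 (0.898), and Sprr1b to Rnase2b (0.922), Sprr2h (0.918) and Stfa1 (0.899). Sprr1b and Sprr2e had a higher r with each other (0.947) than with any of these genes. The r of Sprr2e with Sprr2d (0.944) was also above that with Il1rn. Sprr2f was nearest to Defb3 (0.944), an epithelial defensin, S100a8 (0.937), a calprotectin subunit, and Sprr2g (0.930). For Sprr4 the nearest genes had a lower r, with AI413582 at 0.751, Dusp14 at 0.737 and Rnf225 at 0.709.

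The other Sprr genes tested with a probe set of their own were Sprr2b, Sprr2g, Sprr2h, Sprr2k and Sprr2j-ps. All 5 were higher in the mean pL2 comparison: Sprr2g by 3.13 ± 0.40 (SE, limma adjusted p = 3.83e-06), Sprr2h by 2.41 ± 0.44 (SE, limma adjusted p = 0.000250), Sprr2b by 1.44 ± 0.40, Sprr2k by 1.01 ± 0.34 and the pseudogene Sprr2j-ps by 1.32 ± 0.35. In that comparison 9.05% of genes tested were called higher. Sprr2g and Sprr2h, like Sprr2f, had all 36 pL2 arrays above the 12 others, a complete separation seen in 0.289% of genes tested. Without pL2, Sprr2g and Sprr2k lay below the array median in 12 of 12 arrays and Sprr2h in 11. With pL2, Sprr2k lay below it in 23 of 36. Like Sprr2f, the genes Sprr2g, Sprr2h and Sprr2k passed the filter only because of pL2 arrays. The calls of these genes and of Sprr2f are therefore not separate support. A probe set annotated to Sprr2e, Sprr2f and Sprr2i together gave pL2 minus WT differences of 1.23 in MRI and 1.63 in Freising. The 4 annotated to several of the Sprr2a genes gave differences between -0.15 and 1.21, and 2 of those 4 held identical values. The brightest of the 4 had group means of 12.5 to 13.0, and the identical ones of 9.05 to 10.1. Whether signals at such levels can show a difference was not tested. Among neighbours further along the chromosome, Ivl, the envelope scaffold involucrin, had a difference of -0.49 ± 0.42 (SE, limma adjusted p = 0.431).

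The partners of the Sprr proteins moved less in that comparison. Of 24 other cornified envelope genes 3 were higher and 1 lower, with a list median of 0.00 against -0.01 over all genes. The higher ones were the cystatin-type protease inhibitors Stfa1 (3.38 ± 0.49, SE, limma adjusted p = 2.29e-05), Cstdc5 (1.15 ± 0.36) and Csta1 (1.00 ± 0.30), and the lower one was Lce1m (-1.17 ± 0.36, SE, limma adjusted p = 0.0175). Loricrin (Lor) and filaggrin (Flg) differed by -0.62 ± 0.66 and -1.25 ± 0.80 and were not called. Of 4 transglutaminases, the enzymes that crosslink Sprr proteins, Tgm5 (1.32 ± 0.32, SE, limma adjusted p = 0.00295) and Tgm1 (0.99 ± 0.23, SE, limma adjusted p = 0.00236) were higher and none was lower.

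Of 18 suprabasal keratin and desmosome genes 10 were higher with pL2 and none lower, with a list median of 0.50. They included Krt16 (2.72 ± 0.49, SE, limma adjusted p = 0.000211) and Krt6a (2.38 ± 0.38, SE, limma adjusted p = 5.35e-05), keratins of stressed and wounded epithelium. Of 20 regulators of late squamous differentiation 6 were higher and none lower, among them Fos (0.95 ± 0.30), an AP-1 subunit, and Grhl3 (0.87 ± 0.29) and Ehf (0.69 ± 0.14), transcription factors of the epithelial barrier. The list was also set to hold Fosb, Fosl1, Fosl2, Jun, Junb and Jund, none of which had a called difference as large as that of Fos. Of 8 interleukin-1 family genes 3 were higher, Il1b (2.11 ± 0.46), Il1rn (1.60 ± 0.25) and the receptor gene Il1r1 (0.74 ± 0.16). Each gene given here with a difference was called at limma adjusted p of 0.0256 or less.

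Other cell types moved with the same comparison. Among the 11 markers of neutrophils, 6 passed as higher and 0 as lower, and their mean was 7.20 to 8.63 in pL2 mice against 4.97 to 6.23 in WT mice of MRI, and 6.21 to 6.56 in pL2 mice against 4.59 to 4.87 in WT mice of Freising on chow. All 10 smooth muscle markers were lower with pL2 in the mean comparison, as were 6 of 12 skeletal muscle markers. In MRI 10 of 10 smooth and 9 of 12 skeletal muscle markers were called lower, and in Freising on chow 0 and 0. The skeletal muscle mean was 3.92 to 5.13 in pL2 mice against 5.91 to 6.42 in WT mice of MRI, and 3.63 to 3.99 in pL2 mice against 3.89 to 4.16 in WT mice of Freising on chow. The smooth muscle mean was 7.38 to 9.35 in pL2 mice against 10.35 to 10.82 in WT mice of MRI, and 7.41 to 10.35 in pL2 mice against 9.57 to 10.12 in WT mice of Freising on chow. The squamous basal mean was 8.17 to 8.31 in pL2 mice against 7.75 to 8.60 in WT mice of MRI, and 8.32 to 8.71 in pL2 mice against 8.02 to 8.34 in WT mice of Freising on chow. Of its 10 genes 3 were higher and 1 lower. With that mean as a covariate Sprr1b, Sprr2d, Sprr2e and Sprr2f were still called, with differences of 2.94, 2.14, 3.39 and 3.74, and Sprr1a was not (0.36, adjusted p = 0.0762). With the skeletal muscle mean as a covariate the same 4 genes were called, with differences of 3.72, 2.30, 4.04 and 3.74 for Sprr1b, Sprr2d, Sprr2e and Sprr2f, and Sprr1a was not (0.42, adjusted p = 0.123). The part of smooth muscle and neutrophil content in these differences was not tested.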

How the data were processed

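The deposited values are log2 signals per probe set, made by RMA in Affymetrix Expression Console, per the submitters' processing notes, with no version given. Per the labels, total RNA of junction and cardia tissue was hybridised, 1 array per sample. The genome build behind the probe sets is not given in the sources used here. Of 34390 probe sets, 23521 with 1 gene symbol were used, and the 1814 with several and the 9055 with none were left out. The brightest probe set stood for each of 22180 symbols. A gene entered the tests (15242 did) if at least 3 arrays had it above their median.

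A limma model (limma 3.58.1, R 4.3.3) with a mean for every group took in all 48 arrays and had 32 residual degrees of freedom and moderated variances. It gave 22 two-sided comparisons, in each of which p-values were adjusted by Benjamini-Hochberg across the tested genes. The fit was tested on simulated data. Array medians were 4.03 to 4.27, and the number of arrays limits the precision. Groups came from genotype, diet, facility and age in the labels, and replicate numbers only name arrays. Chromosomes came from RefSeq tables.

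The 7 genes, the lists and the tests were chosen with earlier results of these data known. The rule for named genes took the 7 members, the 3 tested genes outside the 7 with the highest Pearson r to each over all arrays, and listed genes by the size of their difference among those called. Ivl, Lor, Flg, the genes named beside Sprr4 and the chromosome 3 counts were added after their values were seen. Alternatives were filters, probe set averaging, a fit of the compared groups alone, trended robust moderation, cyclic loess, covariates, arrays left out and, added after the data were seen, a skeletal muscle covariate.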

Additional observations from a re-analysis of the deposited data

Results flagged for a closer look

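The effect of pL2 on Sprr1a differed between the FXR and the wild-type background by a test of the difference itself: pL2 minus no pL2 was 2.12 ± 0.21 with the FXR change and 0.77 ± 0.21 without it, a difference of 1.35 (limma adjusted p = 0.0478). All 3 FXR arrays were below the 3 WT arrays, and the pL2_FXR and pL2 arrays of Sprr1a overlapped. The call was lost under 6 of 11 alternatives to the fit and with most single arrays left out.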

How the results depend on the processing

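The alternatives were applied to the 37 differences of single Sprr genes with an unadjusted p below 0.05, and none of these changed sign. Counts of called Sprr genes (of 7) moved as follows, and the cause was not tested except where fewer arrays entered. For pL2 by FXR the count was 1, and it was 0 with no filter, with the compared groups alone and with a covariate for squamous basal markers, the title suffix, sex-linked genes or skeletal muscle (the last chosen after seeing the data), and 2 with cyclic loess and when the 9 arrays with high hepatocyte or intestinal markers were dropped. For FXR against WT it was 3, and 1 with the compared groups alone or the squamous basal covariate. For pL2 on HFD it was 3, and 0 with the compared groups alone and 1 with the title suffix. For pL2 in Freising on chow it was 4, and 1 with the title suffix, which there was on 3 of 3 pL2 and 0 of 3 WT arrays. For Dclk with floxed Notch2 it was 1, and 0 with the compared groups alone or without those 9 arrays. For Dclk Notch2IC_LacZ against floxed Notch2 it was 1, and 0 under those settings and with the squamous basal covariate. With 1 array left out, counts ranged from 1 to 4 for pL2 in Freising on chow, 1 to 4 on HFD, 0 to 2 for pL2 by FXR, 0 to 1 for Dclk with floxed Notch2 and 0 to 1 for the Dclk Notch2 contrast. A stricter filter, averaging of probe sets and trended robust moderation moved no count by more than 1.5 times. The Sprr1a call of the mean pL2 comparison was lost under 8 of 11 alternatives other than leaving out single arrays, and those of Sprr1b, Sprr2d, Sprr2e and Sprr2f under 0 of 11. Among the 11, averaging of probe sets could not change the signals of the 7 genes, since each had 1 probe set. No paired analysis was possible because the labels give no replicate numbers that groups share. Sprr4, and Sprr2f without pL2, lay near the array medians, which limits what can be seen in them.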
